A study of Mus musculus with 19 samples.

Results

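Cytochrome b5 electron transfer was followed through 5 genes of mouse liver: Cyb5a and Cyb5b, which encode the electron carrier cytochrome b5, Cyb5r1 and Cyb5r3, which encode reductases that charge it, and Por, which encodes NADPH cytochrome P450 reductase. The members were taken by gene symbol, 5 of 55836 genes in the deposited table, and all 5 were among the 13597 genes that passed the filter on low counts. They were chosen by name with their levels and fold changes in these livers known, and the study itself names Cyb5a, so every level, fold change and adjusted p-value of a member is given as a description. Polyadenylated RNA was sequenced from the livers of 19 male wild-type C57BL/6 mice, 1 library per mouse, that were 8 weeks old at the start and fed for 8 weeks. CD + Veh (n = 4) received the control diet (CD, named chow diet in the labels, with 10% of energy from fat and matched sucrose) and daily gavage of 0.1% Tween 20 in water. CD + PE (n = 5) received the same diet and 2 mg of polyethylene (PE) particles per day in that vehicle, an exposure that the labels call microplastics. MD + Veh (n = 5) and MD + PE (n = 5) received the metabolic dysfunction-associated steatohepatitis diet (MD), which held 2% cholesterol and drew 40% of its energy from fat and 20% from fructose, without and with PE. Mice of a group were housed together, so cage and group cannot be told apart.

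Cytochrome b5 is a small heme protein anchored in the membrane of the endoplasmic reticulum (Cyb5a) or the outer membrane of mitochondria (Cyb5b). NADH cytochrome b5 reductase, chiefly Cyb5r3, passes electrons from NADH to cytochrome b5, which hands them to fatty acid desaturases, to sterol synthesis enzymes and to some cytochromes P450. Por draws on NADPH instead, supplies cytochromes P450, squalene epoxidase and heme oxygenase, and can also reduce cytochrome b5, so that both chains meet in the hepatocyte.

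The 250 bases before the start of the canonical transcript (GENCODE vM39) are shown for 3 members, since these promoters belong to a gene that was lower in every treated group (Cyb5r3), a gene that was lower in MD + PE than in the other groups (Cyb5b) and a gene whose levels overlapped among all groups (Por). They are read from the GRCm39 genome 5′ to 3′ on the strand of the gene, and capitals mark matches on either strand to the GC box (GGGCGG) or the CCAAT box (CCAAT), which is ATTGG where it runs on the other strand.
Cyb5b, chr8:107876960-107877209, plus strand: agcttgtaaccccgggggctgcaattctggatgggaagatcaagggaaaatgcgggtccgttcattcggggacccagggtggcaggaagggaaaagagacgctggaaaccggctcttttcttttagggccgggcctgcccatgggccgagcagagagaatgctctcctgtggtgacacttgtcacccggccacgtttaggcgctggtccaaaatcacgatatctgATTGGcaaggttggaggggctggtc
Cyb5r3, chr15:83056794-83057043, minus strand: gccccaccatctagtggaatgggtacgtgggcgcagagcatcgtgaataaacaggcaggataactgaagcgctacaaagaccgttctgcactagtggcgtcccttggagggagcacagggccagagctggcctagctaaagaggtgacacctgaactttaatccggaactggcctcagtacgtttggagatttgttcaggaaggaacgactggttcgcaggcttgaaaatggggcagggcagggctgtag
Por, chr5:135717640-135717889, plus strand: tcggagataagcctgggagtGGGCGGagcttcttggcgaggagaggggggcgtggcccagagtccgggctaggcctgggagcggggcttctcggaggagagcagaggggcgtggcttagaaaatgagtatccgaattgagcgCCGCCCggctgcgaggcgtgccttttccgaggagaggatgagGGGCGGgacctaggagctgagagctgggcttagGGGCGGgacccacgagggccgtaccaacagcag
The Por window held 4 GC boxes at a GC content of 66.4%, the Cyb5b window 1 CCAAT box at 57.6%, and the Cyb5r3 window no match at 54.8%, against a median GC content of 53.2% over 21738 promoters of the same length. GC boxes were present in 36.3% and CCAAT boxes in 36.5% of those promoters. None of the 3 windows held the E-box CACGTG, the D-box TTATGNAA, the sterol response element core TCACNCCAC or the nuclear receptor motif AGGTCA, letters found in 6.27%, 3.04%, 1.11% and 13.1% of promoters.

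On the GRCm39 build (GENCODE vM39), Cyb5a lies on chromosome 18 at 84856796 to 84897996, Cyb5b on chromosome 8 at 107877210 to 107922737, Cyb5r1 on chromosome 1 at 134333297 to 134339478 and Por on chromosome 5 at 135698887 to 135764182, all on the plus strand, and Cyb5r3 on chromosome 15 at 83037695 to 83056793 on the minus strand. Cyb5r3 shares 273 exonic bases with an antisense long noncoding RNA, Gm49463, and Por shares 154 with the processed pseudogene Gm16061 and 18 with Tmem120a, all on the opposite strand. The canonical transcripts of Cyb5a, Cyb5r1 and Por each start inside the annotated gene, downstream of its first base.

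The libraries held 10398820 to 15456729 estimated counts, so that 1 CPM (counts as a share of the library, scaled by the trimmed mean of M values, TMM) stood for 9.96 to 16.1 counts. All 8 hepatocyte markers were detected in every library, with summed levels of 78667 to 93853 CPM in CD + Veh, 69516 to 97535 in CD + PE, 54202 to 68363 in MD + Veh and 49723 to 66904 in MD + PE. Less RNA of a gene per cell and fewer cells that express it cannot be told apart in whole liver. Libraries numbered 39 to 45 (CD + Veh and 3 of MD + Veh) held 1088 to 1690 counts of the pseudogene Rps6-ps4, and libraries 46 to 57 held 0. Because all PE libraries are numbered 48 to 57, PE and the later numbers cannot be told apart on the control diet. MD + Veh has 2 libraries among the later numbers.

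Carrier and reductase moved apart in these livers: Cyb5a rose and Cyb5r3 fell with PE on the control diet and with the MASH diet, and Cyb5b was lower in MD + PE than in each other group. Of the 5 members, 2 were called in CD + PE against CD + Veh (Cyb5a higher, Cyb5r3 lower), where 2.92% of all genes tested were called, and the same 2 in MD + Veh against CD + Veh, where 10.4% were. For PE on the MASH diet, Cyb5b and Cyb5r3 were called lower, where 1.08% of all genes were called. In MD + PE against CD + PE, 1 member was called (Cyb5r3, 4.61% of all genes). In MD + PE against CD + Veh, 3 were called (Cyb5a higher, Cyb5b and Cyb5r3 lower, 14.6% of all genes). Between MD + Veh and CD + PE, 0 members were called by edgeR (5.18% of all genes were) and 0 by DESeq2. The 1 member there at an unadjusted p under 0.05 in edgeR was Cyb5r3. Its adjusted p was 0.0118, but its log2 fold change of -0.34 was under the 0.38 needed for a call. The same held for Cyb5b in MD + PE against CD + PE (-0.35, adjusted p = 0.00831, edgeR). The groups did not overlap for 2, 2, 2, 2, 3 and 1 of the 5 members in these comparisons, in the order given, next to 7.83%, 16.2%, 3.57%, 6.18%, 18.8% and 7.16% of all genes. Nothing follows from these counts, since the members were taken with the values known, and comparisons that share CD + Veh, CD + PE or MD + PE share its libraries.

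**Figure D1:**
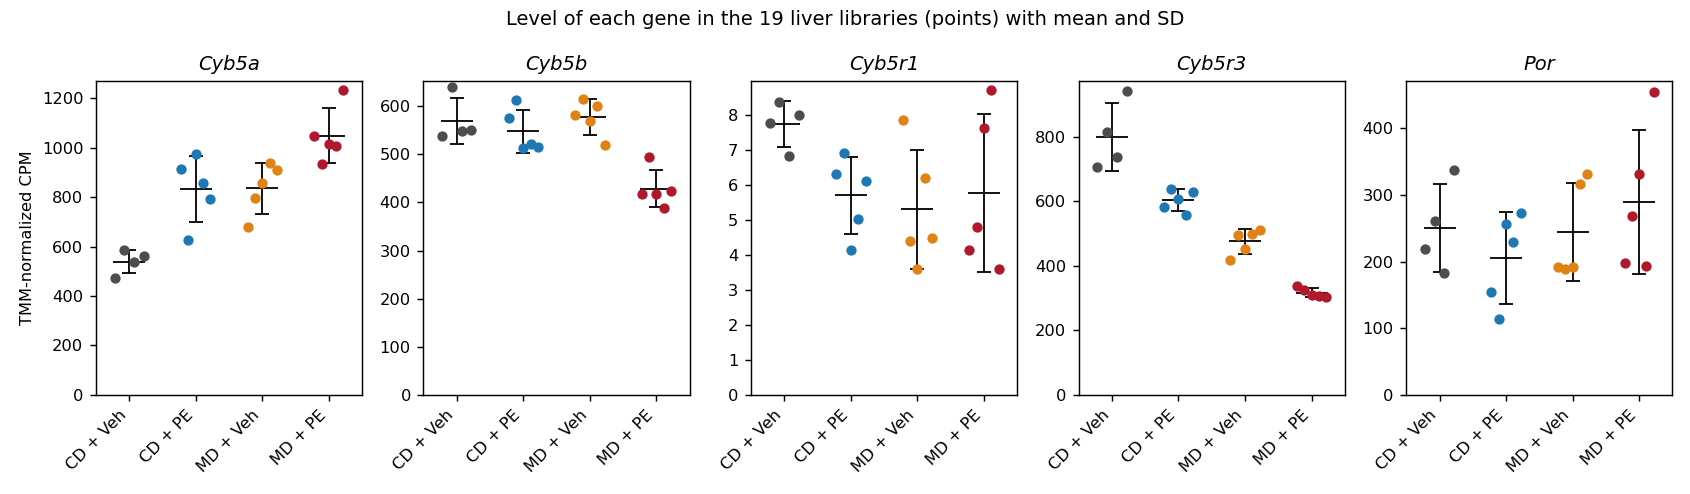
Level of each of the 5 genes in TMM-normalized CPM (vertical axis, from 0) in the 4 groups (horizontal axis), with 1 point per library and bars for the mean and SD. Cyb5r3 steps down from CD + Veh to MD + PE with no overlap between groups, Cyb5a steps up from 539 to 1047 CPM, Cyb5b is lower in MD + PE, and Por and Cyb5r1 overlap throughout.

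**Figure D2:**
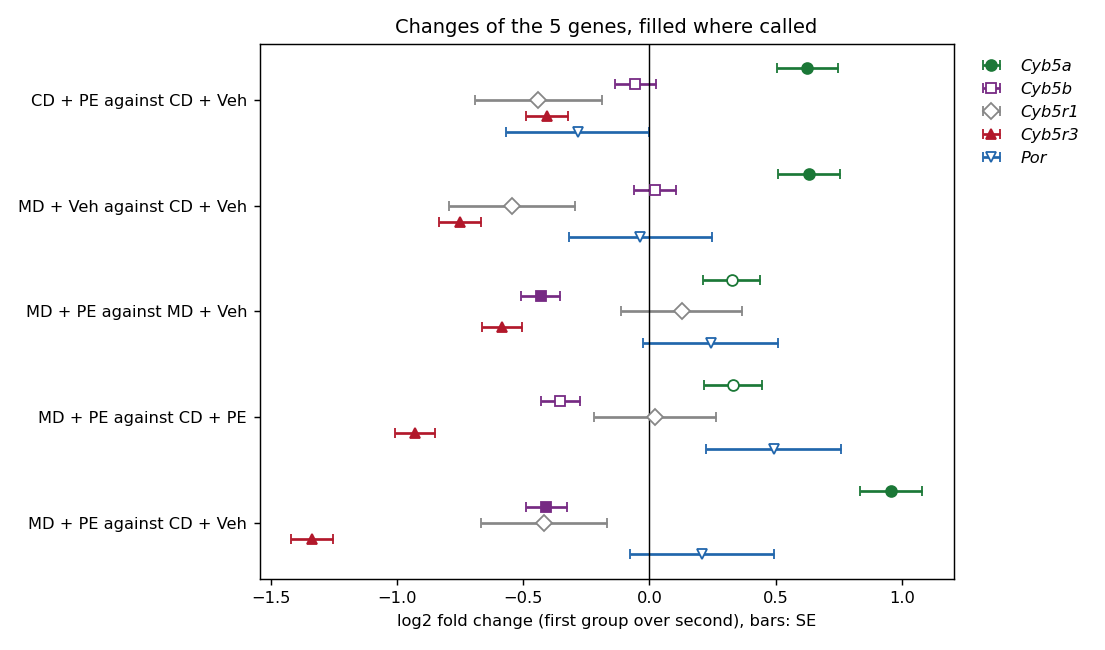
Log2 fold change of each of the 5 genes (horizontal axis, first group over second, bars for SE) in 5 comparisons (vertical axis), with filled symbols for called differences. Cyb5r3 is filled and negative in all 5 comparisons, from -0.41 to -1.34, and Cyb5a is filled and positive in the 3 comparisons against CD + Veh.

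Cyb5r3, the NADH cytochrome b5 reductase that hepatocytes and red blood cells rely on, fell with PE on either diet and with the MASH diet. Its 4 CD + Veh libraries were at 706, 817, 736 and 941 CPM (800.2 ± 105, SD, n = 4), and its 5 CD + PE libraries at 582, 639, 609, 556 and 629 CPM (603 ± 34.0, n = 5). MD + Veh gave 418, 497, 451, 499 and 512 CPM (476 ± 39.6, n = 5). MD + PE gave 338, 326, 310.3, 306 and 304 CPM (317 ± 14.6, n = 5). The groups were thus ordered CD + Veh, CD + PE, MD + Veh, MD + PE from high to low, and in none of the 6 pairwise comparisons did their libraries overlap. The log2 fold change was -0.41 ± 0.0832 (SE) for CD + PE against CD + Veh, with an adjusted p of 0.00933 in edgeR's quasi-likelihood F test over all genes. It was -0.75 ± 0.0832 for MD + Veh against CD + Veh (adjusted p = 7.56e-06, edgeR) and -0.59 ± 0.0792 for MD + PE against MD + Veh (adjusted p = 0.000887, edgeR). MD + PE against CD + Veh gave -1.34 ± 0.0836 (adjusted p = 3.14e-09, edgeR) and MD + PE against CD + PE gave -0.93 ± 0.0795 (adjusted p = 3.8e-07). MD + Veh against CD + PE gave -0.34, which passed the adjusted p of 0.05 (0.0118) but not the minimum fold change of 0.38 used here for a call.

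The fall of Cyb5r3 on the control diet lay near the limits of a call. Without CD + Veh replicate 4, the highest library at 941 CPM, it was -0.31 with an adjusted p of 0.0577 (edgeR), and without CD + PE replicate 4 it was -0.37, under the minimum fold change. With the division of library numbers as a covariate it was -0.56 with an adjusted p of 0.0873. The fall on the MASH diet was also present among libraries 46 to 57 alone, at -0.66 (adjusted p = 0.0189, edgeR), and the difference between MD + Veh and CD + Veh among libraries 39 to 45 alone, at -0.80 (adjusted p = 0.00363, edgeR). Summed red blood cell markers (7 genes) ranged from 147 to 221 CPM in CD + Veh, 109 to 443 in CD + PE, 183 to 746 in MD + Veh and 175 to 330.4 in MD + PE, and their part in the levels of Cyb5r3 was not tested.

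Cyb5a, the form of cytochrome b5 that serves desaturases and cytochromes P450 in the endoplasmic reticulum, was higher in every treated group than in CD + Veh. The CD + Veh libraries held 473, 585, 539 and 561 CPM (539 ± 48.2, n = 4). CD + PE held 915, 624, 974, 857 and 791 CPM (832 ± 135, n = 5) and MD + Veh 678, 796, 857, 939 and 909 CPM (836 ± 104, n = 5). MD + PE held 1049, 934, 1017, 1005 and 1232 CPM (1047 ± 111, n = 5). All 15 libraries of the treated groups exceeded the highest CD + Veh library, while MD + PE overlapped with both CD + PE and MD + Veh, and the CD + PE and MD + Veh means differed by 0.01 on the log2 scale. The rise was 0.63 ± 0.122 in CD + PE (adjusted p = 0.00716, edgeR) and 0.63 ± 0.122 in MD + Veh (adjusted p = 0.00161), and 0.96 ± 0.123 in MD + PE (adjusted p = 1.73e-05), each against CD + Veh. PE on the MASH diet gave 0.33 ± 0.114, with an adjusted p of 0.158, and MD + PE against CD + PE gave 0.33 with an adjusted p of 0.0868. The study lists Cyb5a among genes that PE raised on both diets. On the MASH diet the limits of a call were not met here by edgeR, nor by DESeq2 (0.34, adjusted p = 0.0671).

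The lowest CD + PE library of Cyb5a, replicate 2 at 624 CPM, is also the library with the highest summed Kupffer cell and macrophage markers of its group (8 genes, 724 CPM against a group median of 124). Without it the Cyb5a rise in CD + PE was 0.71 (adjusted p = 0.00186, edgeR). These markers, none of which was at 0 in any library, summed to 98.8 to 181 CPM in CD + Veh, 83.3 to 724 in CD + PE, 215 to 314 in MD + Veh and 169.6 to 316 in MD + PE. MD + Veh thus lay above CD + Veh without overlap, as it did for Cyb5a. MD + Veh replicate 1 held 3078 CPM of skeletal muscle markers (8 genes, group median 139) and the lowest Cyb5a, the lowest Cyb5r3 and the highest Cyb5r1 of its group. Without it, MD + Veh against CD + Veh gave 0.72 for Cyb5a (adjusted p = 0.000558, edgeR), -0.69 for Cyb5r3 (adjusted p = 4.92e-05) and -0.72 for Cyb5r1 (adjusted p = 0.069). The part of macrophage and muscle RNA in these levels was not tested. With the division of library numbers as a covariate, the Cyb5a difference between CD + PE and CD + Veh was 0.38 with an adjusted p of 0.475, whereas MD + Veh against CD + Veh kept 0.53 (adjusted p = 0.0111, edgeR) and, among libraries 39 to 45 alone, 0.54 (adjusted p = 0.0126). The summed level of adipose markers (6 genes) was, like Cyb5a, lower in CD + Veh than in every other group without overlap. It was 1336 to 2426 CPM in CD + Veh, 2727 to 4780 in CD + PE, 3062 to 4302 in MD + Veh and 2754 to 5238 in MD + PE. The library with the highest sum, MD + PE replicate 3, had 4 of the 6 genes at 0. Up to 4 of those 6 genes were at 0 in a library, the list holds Car3, which hepatocytes also express, and its part in the levels of Cyb5a was not tested.

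Cyb5b, the mitochondrial outer membrane form, overlapped among 3 groups and was lower in MD + PE. CD + Veh libraries were at 538, 640.0, 549 and 550.2 CPM (569 ± 47.5, n = 4). CD + PE libraries were at 576, 614, 512, 521 and 515 CPM (548 ± 45.4, n = 5), and MD + Veh libraries at 583, 615, 569.7, 601 and 519.9 CPM (578 ± 36.6, n = 5). MD + PE libraries were at 418, 494, 418, 389 and 424 CPM (429 ± 39.1, n = 5). The highest MD + PE library, at 494 CPM, stayed below the lowest library of any other group, so the other 3 groups overlapped among themselves and none of them overlapped with MD + PE. The difference was -0.43 ± 0.0775 against MD + Veh (adjusted p = 0.00816, edgeR) and -0.41 ± 0.0817 against CD + Veh (adjusted p = 0.00137). Against CD + PE it was -0.35 ± 0.0775, with an adjusted p of 0.00831 but under the minimum fold change. PE on the control diet gave -0.06 (adjusted p = 0.798) and the MASH diet without PE 0.02 (adjusted p = 0.893). Among libraries 46 to 57 alone, MD + PE against MD + Veh was -0.37 with an adjusted p of 0.431 from 5 and 2 libraries. The difference from MD + Veh was -0.39 (adjusted p = 0.164, edgeR) with the division of library numbers as a covariate. Without TMM scaling, on total counts only, it was also -0.39, with an adjusted p of 0.0577. The call against CD + Veh was lost in the same fits, at -0.34 (adjusted p = 0.151) with the covariate and at -0.37, under the minimum fold change, on total counts.

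Por, the NADPH-dependent reductase of the microsomal P450 system, varied widely within groups and had no called difference. Its libraries held 219, 261, 183 and 337 CPM in CD + Veh (250.3 ± 66.2, n = 4) and 155, 113, 257, 230.0 and 273 CPM in CD + PE (205 ± 68.6, n = 5). MD + Veh held 192, 189, 192, 317 and 331 CPM (244 ± 73.0, n = 5), and MD + PE 197, 269, 331, 194 and 454 CPM (289 ± 108, n = 5). All pairs of groups overlapped. Within MD + Veh the 3 libraries numbered 43 to 45 lay at 189 to 192 CPM whereas the 2 libraries numbered 46 and 47 lay at 317 and 331 CPM. Against CD + Veh the log2 fold change was -0.28 ± 0.284 for CD + PE (adjusted p = 0.672, edgeR) and -0.04 for MD + Veh (adjusted p = 0.948). These values were, with the division of library numbers as a covariate, -1.05 (adjusted p = 0.343, edgeR) and -0.39 (adjusted p = 0.41). MD + PE gave 0.24 against MD + Veh (adjusted p = 0.724, edgeR) and 0.49 against CD + PE (adjusted p = 0.302).

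Por varied within groups along with a score of the circadian clock. The score is the mean log2 CPM of Bmal1, Clock, Npas2 and Nfil3 minus that of Dbp, Tef, Ciart, Per2, Per3, Nr1d1 and Nr1d2, and differs with the time of day at which a liver is collected. It ranged from -4.55 to -3.07 in CD + Veh, -2.92 to 0.88 in CD + PE, -2.10 to 0.15 in MD + Veh and -1.81 to -0.04 in MD + PE, so that CD + Veh did not overlap with any other group. Across 19 libraries, log2 levels of Por correlated with the score at r = -0.433, and deviations from the group means at r = -0.780, values that rest on the same libraries and depths. The other members gave, across the 19 libraries, r = -0.607 (Cyb5r3), 0.473 (Cyb5a), -0.411 (Cyb5r1) and -0.0915 (Cyb5b) with the score. For deviations from the group means these were 0.0063 (Cyb5r3), -0.546 (Cyb5a), -0.024 (Cyb5r1) and 0.5003 (Cyb5b). The value of Cyb5r3 across libraries was thus further from 0 than that of Por, and it was not seen within groups. With the score as a covariate the Por difference became 0.49 in CD + PE (adjusted p = 0.318) and 1.03 in MD + Veh (adjusted p = 0.0519), and passed the limits in MD + PE at 1.21 against CD + Veh (adjusted p = 0.00757, edgeR) and 0.73 against CD + PE (adjusted p = 0.0201). In the same fit Cyb5r3 kept -0.41 in CD + PE but with an adjusted p of 0.0606. Since CD + Veh scores overlapped with no other group, this fit extrapolates its slope for differences from CD + Veh. The part of collection time in these levels was not tested.

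**Figure D3:**
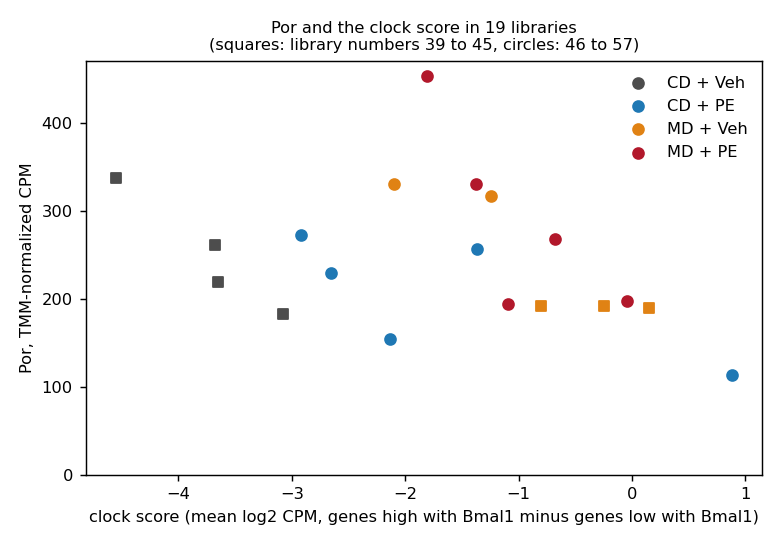
TMM-normalized CPM of Por (vertical axis, from 0) against the clock score (horizontal axis, difference of mean log2 CPM) in the 19 libraries, coloured by group, with squares for libraries 39 to 45 and circles for 46 to 57. CD + Veh sits at the left, from -4.55 to -3.07, and in each group the library with the lowest score has the highest Por level.

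Cyb5r1, a reductase related to Cyb5r3, was rare in liver. Its libraries held 7.77, 8.38, 6.84 and 8.02 CPM in CD + Veh (7.75 ± 0.655, n = 4) and 6.31, 6.93, 4.15, 5.02 and 6.13 CPM in CD + PE (5.71 ± 1.11, n = 5). MD + Veh held 7.86, 4.40, 3.61, 6.19 and 4.48 CPM (5.31 ± 1.71, n = 5), and MD + PE 4.14, 4.80, 7.65, 8.72 and 3.59 CPM (5.78 ± 2.27, n = 5). CD + Veh had the highest mean, yet each of the other groups overlapped with it. The differences from CD + Veh were -0.44 ± 0.252 (CD + PE), -0.54 ± 0.249 (MD + Veh, the lowest group) and -0.42 (MD + PE), with adjusted p-values of 0.393, 0.156 and 0.259 (edgeR).

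By mean CPM over all libraries, Cyb5a ranked 148th, Cyb5r3 202nd, Cyb5b 206th, Por 460th and Cyb5r1 8905th of 13597 genes. Per kilobase of exon, the mean level was 205 CPM for Cyb5a, 124 for Cyb5r3, 92.1 for Cyb5b, 48.3 for Por and 1.15 for Cyb5r1. The order of these means over all libraries was the same with the length of the longest or of the canonical transcript, although the values rose up to 989 CPM per kilobase for Cyb5a. Within CD + Veh the order of Cyb5a and Cyb5r3 turned on the length used. Per kilobase of exon Cyb5a, at its lowest group mean of 134 CPM, stood below Cyb5r3, at its highest group mean of 186 CPM. Per kilobase of the longest transcript the same group gave 391 CPM for Cyb5a and 314 for Cyb5r3.

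The PE effect did not pass the test of a difference between diets for any member. The interaction (the PE effect on the MASH diet minus that on the control diet) was called for 0 of 5 members by edgeR and 0 by DESeq2, where 0.00735% of all genes were called by edgeR. At an unadjusted p under 0.05, 1 member appeared: Cyb5b at -0.37 (unadjusted p = 0.00359, adjusted p = 0.279, edgeR). The lower Cyb5b in MD + PE is thus called against MD + Veh while the difference between diets is not.

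Ratios between members within a library do not depend on how libraries are scaled. The ratio of Cyb5a to Cyb5r3 counts, carrier over reductase, stood at 0.669, 0.716, 0.732 and 0.596 in the CD + Veh libraries. CD + PE followed with 1.57, 0.977, 1.60, 1.54 and 1.26. Next were 1.62, 1.60, 1.90, 1.88 and 1.77 in MD + Veh, and the highest were 3.10, 2.87, 3.28, 3.29 and 4.05 in MD + PE. The 4 groups did not overlap, although the highest CD + PE and the lowest MD + Veh library both round to 1.60, and the geometric mean went from 0.676 through 1.37 and 1.75 to 3.29. Because both members of the ratio were chosen with their levels known, it is a description. The ratio of Cyb5r3 to Por had geometric means of 3.26 in CD + Veh and 3.09 in CD + PE on the control diet, against 2.01 in MD + Veh and 1.15 in MD + PE, where it ranged from 0.670 to 1.71, so that in some livers Por counts exceeded those of Cyb5r3. Cyb5a to Por had a geometric mean of 2.20 in CD + Veh, and of 4.22 (CD + PE), 3.52 (MD + Veh) and 3.81 (MD + PE) in the treated groups, with libraries at 1.66 to 2.94 in CD + Veh and at 2.71 to 5.31 in MD + PE. Cyb5a to Cyb5b, the microsomal against the mitochondrial form, had geometric means of 0.947, 1.51, 1.44 and 2.44 in the same order.

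**Figure D4:**
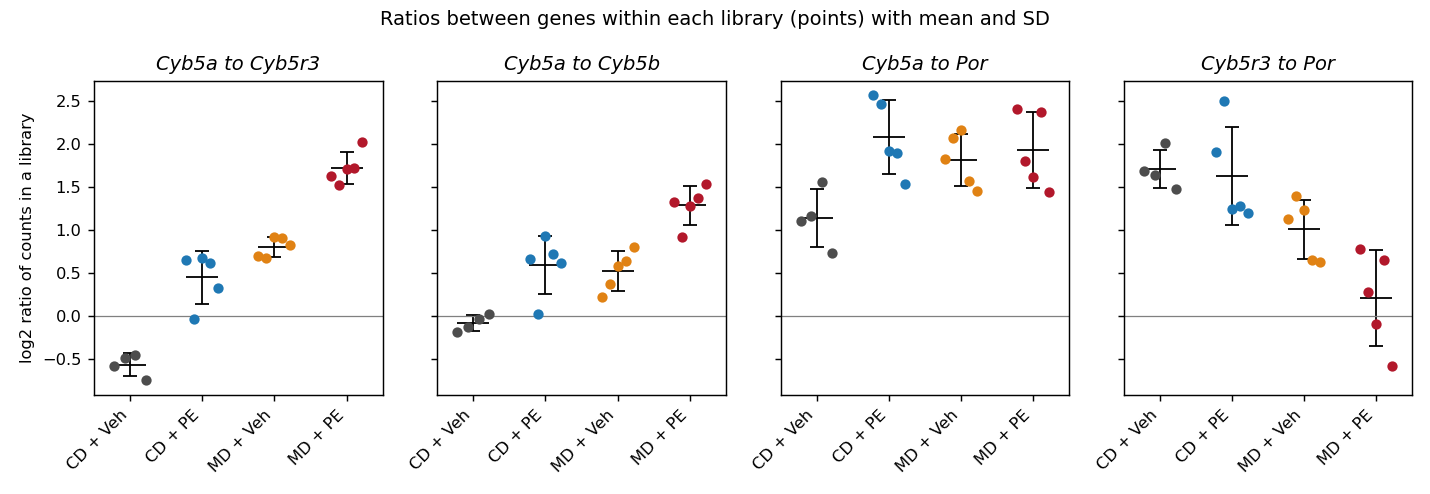
Ratios of counts between members in each library (points, log2 scale on the vertical axis) by group (horizontal axis), with bars for the mean and SD of the log2 ratio. The ratio of Cyb5a to Cyb5r3 climbs from 0.596 to 0.732 in CD + Veh to 2.87 to 4.05 in MD + PE, and that of Cyb5r3 to Por falls from a geometric mean of 3.26 to 1.15.

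Enzymes of lipid synthesis that take electrons from cytochrome b5 were called lower in each comparison with CD + Veh and with PE on the MASH diet, comparisons that share libraries. In MD + Veh against CD + PE they were called in both directions. Of 13 listed enzymes, 10 were tested (Scd4, Degs2 and Fa2h were not). The 10 include Cmah, a sialic acid hydroxylase rather than an enzyme of lipid synthesis, which counts in the list medians. In CD + PE against CD + Veh, 3 fell and 0 rose, with a list median of -0.40 against 0.01 for all genes. Scd1, the main hepatic stearoyl-CoA desaturase, went from 24256 ± 5976 to 11616 ± 3118 CPM (log2 fold change -1.06), and Sc5d, the lathosterol oxidase of cholesterol synthesis, from 805 ± 106 to 578 ± 35.6 CPM (-0.48). The rare desaturase Scd3 fell from 6.01 to 1.12 CPM (-2.41). In MD + Veh against CD + Veh, 3 fell and 0 rose (median -0.29): Msmo1, the methylsterol monooxygenase (-2.03), Sc5d (-0.96) and Fads1, the delta-5 desaturase (-0.84), while Scd1 averaged 25508 ± 3576 CPM in MD + Veh. PE on the MASH diet came with 6 that fell and 0 that rose (median -0.78), among them Scd1 to 10203 ± 1771 CPM (-1.32), Fads1 to 207 ± 70.4 CPM (-1.09) and Fads2, the delta-6 desaturase, to 489.7 ± 117 CPM (-0.90). In MD + PE against CD + Veh, 6 fell and 0 rose (median -1.27). The median over all genes was -0.001 there and -0.004 in MD + Veh against CD + Veh. For MD + PE against MD + Veh it was -0.012. In MD + PE against CD + PE 4 fell and 0 rose. MD + Veh against CD + PE had 2 higher, among them Scd1 (1.13), and 2 lower, Msmo1 (-1.46) and Sc5d (-0.49). With the division of library numbers as a covariate, 0 were called in CD + PE and 2 in MD + PE against MD + Veh.

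Sc5d was the gene whose pattern was most like that of Cyb5r3 among the 9388 genes that averaged 5 CPM or more, at a Pearson r of 0.978 and a Spearman rho of 0.949 over 19 libraries, and r = 0.526 for deviations from the group means. Next came Dhcr7, the reductase of the last step of cholesterol synthesis (r = 0.971), which averaged 116 CPM in CD + Veh and 58.9 in CD + PE, then 33.0 in MD + Veh and 14.3 in MD + PE, and Avpi1 (r = 0.970). The genes most like Cyb5a were Acat1, a mitochondrial thiolase (r = 0.941), Ttpa, the vitamin E transfer protein (r = 0.930), and the ethanol-inducible cytochrome P450 Cyp2e1 (r = 0.926), which averaged 3816 CPM in CD + Veh and 7420 in MD + PE. Those most like Por were Dnaja2 (r = 0.814), Slc7a2 (r = 0.782) and Slc25a51 (r = 0.780). Those most like Cyb5b were Epg5 (r = 0.868), Dennd1a (r = 0.855) and Gstm7 (r = 0.847), and those most like Cyb5r1 were Nup160 (r = 0.885) and Myo10 (r = 0.790). Between members, Cyb5a and Cyb5r3 correlated at r = -0.786 over the 19 libraries but at 0.182 for deviations from the group means, and Cyb5a and Por at 0.336 and 0.626. These correlations share libraries, groups and depths and carry no test.

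The acceptors of Por electrons were called in both directions in CD + PE and in MD + Veh, each against CD + Veh. The shares of all genes called were 2.92% and 10.4% there, and 1.08% in MD + PE against MD + Veh. Of 49 cytochromes P450, heme oxygenases and squalene epoxidase on the list, 46 were tested. In CD + PE against CD + Veh, 2 rose and 2 fell by edgeR, against 8 that rose and 2 that fell by DESeq2. The risen genes were the fatty acid hydroxylase Cyp4a10 (40.8 ± 31.7 to 223 ± 132 CPM, log2 fold change 2.45) and the steroid and drug hydroxylase Cyp3a25 (207 ± 18.7 to 368 ± 84.5 CPM, 0.83). The fallen genes were Sqle, the squalene epoxidase (-1.45), and Cyp2j6 (-0.57). With the division of library numbers as a covariate 0 were called. In MD + Veh against CD + Veh, 13 rose and 6 fell, with a list median of 0.28. With the clock score as a covariate 5 rose and 2 fell. Sqle fell from 96.3 ± 29.7 to 1.89 ± 0.849 CPM (-5.65), as did Cyp51, the lanosterol demethylase (-2.58), and Cyp17a1, the steroid hydroxylase (-2.25), and the retinoic acid hydroxylase Cyp26b1 rose (2.43). In MD + PE against MD + Veh, 1 fell (Cyp51, -0.86) and 0 rose, and 0 were called under RLE normalization. DESeq2 called 2 lower and 0 higher there, and 12 of the 46 had an unadjusted p under 0.05 in edgeR.

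**Figure D5:**
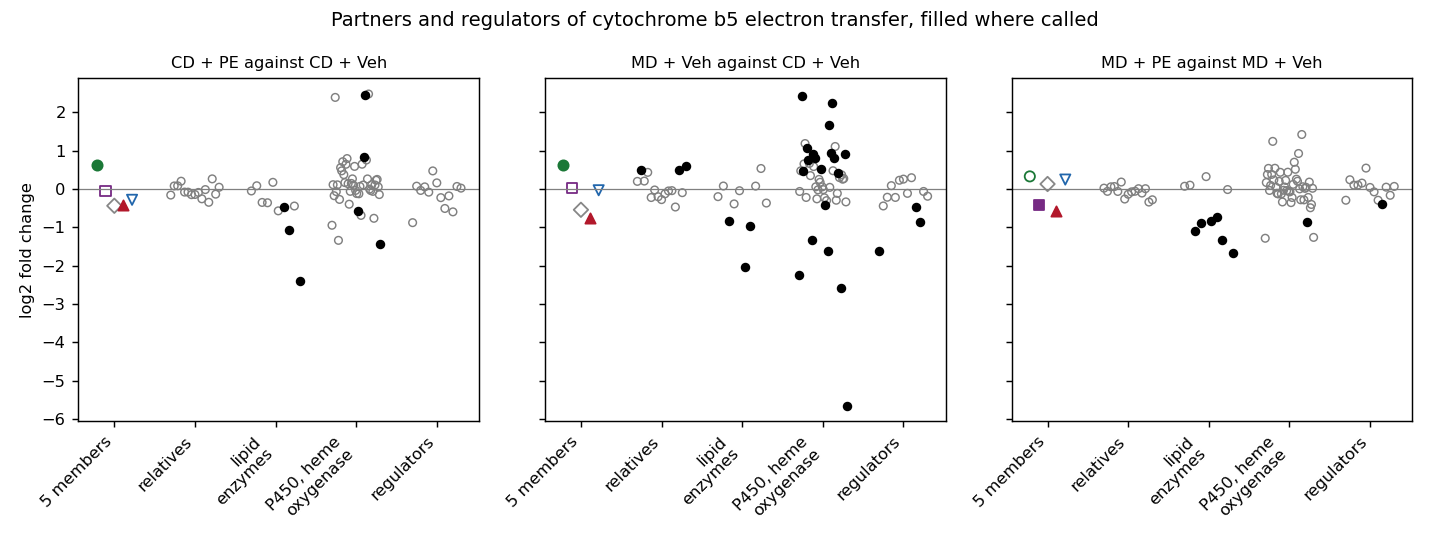
Log2 fold change (vertical axis) of the 5 members and of each tested gene on 4 lists (horizontal axis) in 3 comparisons (panels), with filled symbols for called genes. In these 3 comparisons lipid enzymes are called below 0 (3, 3 and 6 of 10) and 0 above it. P450 acceptors are called on both sides in CD + PE and in MD + Veh, each against CD + Veh, with Sqle lowest at -5.65 in MD + Veh. In MD + PE against MD + Veh 1 of them is called, below 0.

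Other proteins of the family and related carriers were called in MD + Veh and in MD + PE against CD + Veh, and in MD + Veh against CD + PE. The shares of all genes called there were 10.4%, 14.6% and 5.18%. None was called with PE on the control diet, with PE on the MASH diet, or in MD + PE against CD + PE. In those comparisons 2.92%, 1.08% and 4.61% of all genes were called. Of 16 relatives, 15 were tested (Cyb5r2 was not). In CD + PE against CD + Veh 0 were called by edgeR, with 1 at an unadjusted p under 0.05, and 0 by DESeq2. In MD + Veh against CD + Veh, 3 rose and 0 fell: Suox, the sulfite oxidase with a cytochrome b5 domain (71.1 ± 9.72 to 107 ± 6.94 CPM, 0.59), the heme-binding Pgrmc1 (614 ± 39.7 to 866 ± 78.1 CPM, 0.50) and Cyb5d2 (0.49). Between MD + PE and MD + Veh 0 were called by edgeR, with 3 at an unadjusted p under 0.05, and 0 by DESeq2. In MD + PE against CD + PE 0 were called by edgeR, but 9 of the 15 had an unadjusted p under 0.05. The list median there was 0.14 against -0.02 for all genes. In MD + PE against CD + Veh, 3 rose and 3 fell, with Pgrmc1 at 0.50, the Cyb5 reductase-like Cyb5rl at 0.49, the mitochondrial adrenodoxin reductase Fdxr at -0.47 and Pgrmc2 at -0.44. MD + Veh against CD + PE had 2 higher, Suox (0.55) and Cyb5d2 (0.41), and 0 lower.

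Among 13 regulators of these pathways (all tested), 0 were called in CD + PE by edgeR and 0 by DESeq2, with 3 at an unadjusted p under 0.05. Of all genes tested, 2.92% were called there, 10.4% in MD + Veh and 14.6% in MD + PE, each against CD + Veh. In MD + Veh against CD + Veh 3 fell: Dbp (-1.62) and Tef (-0.87), which carry clock output and are also part of the clock score, and Srebf2 (-0.46), the activator of cholesterol synthesis genes. With the clock score as a covariate 0 were called. Srebf2 was also the 1 regulator that fell in MD + PE against MD + Veh (-0.39), and it averaged 49.3 ± 5.93 CPM in CD + Veh and 43.4 ± 1.86 in CD + PE, then 35.7 ± 4.11 in MD + Veh and 27.2 ± 2.24 in MD + PE.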

How the data were processed

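Libraries were made from poly(A) RNA of 19 livers. Per the labels and the study's methods, the authors trimmed reads with fastp 0.23.4, quantified them with Salmon 1.10.3 (sequence bias correction, GENCODE transcriptome of GRCm39, release not given in the sources used here) and collapsed transcripts into genes by tximport. What they deposited are estimated counts, whole and not normalized, for 55836 genes, and such counts can be split among overlapping genes and near-identical copies. Groups follow the titles and treatment labels, and all samples carry 1 batch label. Columns were checked for copies: over 36 pairs within groups the mean squared difference per gene was 11.2 to 85.5 in units of counting error.

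Counts were analysed with edgeR 4.0.16 in R 4.3.3 (TMM, filterByExpr by group, 1 coefficient per group, quasi-likelihood F test, all 19 libraries), with Benjamini-Hochberg adjustment over 13597 genes. Calls needed an adjusted p under 0.05 and a log2 fold change of 0.38 or more in either direction, the limits of the study's methods. SE is the log2 fold change divided by the square root of F. The members and lists were chosen with earlier results of these data known, so neither their counts nor their p-values are independent evidence. Named genes are the members, at most 4 called genes per list and comparison with the largest change (5 CPM or more on average in one of the groups), the 3 genes most correlated with each member (log2 CPM, prior count 2) and genes that mark libraries. Promoters were read from GRCm39 with pysam 0.24.0.

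Replicate numbers are shared across groups. In 27 pairs that share a number, deviations from group means correlated at -0.245 to 0.410 (median 0.0293, above 0.1 in 6), so the libraries were treated as unpaired. The alternatives were RLE, upper quartile and no composition scaling, DESeq2 1.42.0, either no filter on low counts or a stricter one (10 counts and a mean of 1 CPM), robust dispersion, a call without the limit on fold change, fits of 2 groups alone, counts thinned to equal depth, the replicate block, library division or clock score as a covariate, other gene lengths and each library left out. Fits within library numbers 39 to 45 and 46 to 57, and the canonical transcript length, were added after seeing the data. The scripts were tested on simulated data. P-values measure the spread between mice that shared housing within a group, in 1 experiment. A result that the rule for named genes would have added is not reported here.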

Additional observations from a re-analysis of the deposited data

Results flagged for a closer look

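One value among the 20 groups of library levels (5 genes in 4 groups) stood apart from its group. Cyb5b in CD + Veh replicate 2 was at 640.0 CPM while the other 3 libraries of the group lay at 538 to 550.2 CPM, a gap of 0.879 of the group's range. Chance flags about 1 in 20 groups. Without this library the Cyb5b difference between MD + PE and CD + Veh was -0.35 (adjusted p = 0.00794, edgeR), under the minimum fold change.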

How the results depend on the processing

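All 35 member values (5 genes, 7 comparisons) kept their direction and their side of the limits under RLE and upper quartile normalization, DESeq2, no filter, the stricter filter, robust dispersion, thinning to equal depth and the replicate block. The block, fitted although the numbers did not pair the libraries, changed the calls on the lists in 1 place, where the regulators called in CD + PE against CD + Veh went from 0 to 1. On total counts only, 1 member was called in MD + PE against MD + Veh. MD + PE had 2 called against CD + PE and 2 against CD + Veh, where Cyb5b was at -0.37. With the minimum fold change dropped, Cyb5b joined Cyb5r3 in MD + PE against CD + PE, which gave 2 called members. Cyb5r3 was then the 1 member called in MD + Veh against CD + PE. With only the 2 groups compared, 1 member was called in CD + PE against CD + Veh, Cyb5r3 having an adjusted p of 0.0574 (edgeR).

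With the division of library numbers as a covariate, 0 members, 0 lipid enzymes and 0 P450 acceptors were called in CD + PE against CD + Veh, Cyb5b turned to 0.016 and Por went from -0.28 to -1.05. In MD + Veh against CD + Veh Por went from -0.04 to -0.39. In MD + PE against MD + Veh the same covariate left 1 member, 2 lipid enzymes, 0 P450 acceptors and 0 regulators, with Por at -0.17, and in MD + PE against CD + Veh Por turned to -0.55 and the call of Cyb5b was lost (-0.34, adjusted p = 0.151, edgeR). Within libraries 46 to 57, with 2 MD + Veh libraries, 1 member, 1 lipid enzyme, 0 P450 acceptors and 0 regulators were called, with Por at -0.15. With the clock score as a covariate, 1 member was called in CD + PE against CD + Veh and 4 in MD + PE against CD + PE. In that fit 7 P450 acceptors and 0 regulators were called in MD + Veh, 0 P450 acceptors in MD + PE against MD + Veh, Por turned to 0.49, 1.03 and, for the interaction, -0.30, and Cyb5b to -0.14 in MD + Veh. The cause was not tested.

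P450 acceptors called in CD + PE were 10 by DESeq2 and 2 with only the 2 groups compared. In MD + PE against MD + Veh they were 2 by DESeq2 or with no minimum fold change, and 0 under RLE, upper quartile, total counts only, robust dispersion and only the 2 groups compared, as were the regulators under these settings except robust dispersion. Mean levels per kilobase were 600.4, 117, 1.67, 210.3 and 84.1 CPM for Cyb5a, Cyb5b, Cyb5r1, Cyb5r3 and Por with the longest transcript as length, and 989, 121, 3.29, 221 and 93.7 CPM with the canonical transcript.

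Leaving out each of the 19 libraries in turn gave 1 to 2 members called in CD + PE against CD + Veh and in MD + PE against CD + PE. Cyb5b in MD + PE against CD + Veh was called in 17 of 19 such fits, and lost without CD + Veh replicate 2 (-0.35) and MD + PE replicate 4 (-0.35). It was called against CD + PE without MD + PE replicate 2 (-0.41). P450 acceptors ranged over 2 to 8, 12 to 19 and 0 to 1 called in CD + PE, in MD + Veh (both against CD + Veh) and in MD + PE against MD + Veh, and regulators over 0 to 1, 0 to 3 and 0 to 1, with 8 P450 acceptors in CD + PE without CD + PE replicate 2, 2 without CD + PE replicate 3, and 0 regulators in MD + Veh without CD + Veh replicate 4. Lipid enzymes in the last comparison ranged over 3 to 6, with 3 without MD + PE replicate 3. Uncalled changes that turned sign were Cyb5b in CD + PE (-0.10 to 0.0046) and MD + Veh (-0.0019 to 0.081), Por in MD + Veh (-0.16 to 0.16) and MD + PE (-0.015 to 0.41) against CD + Veh, and Cyb5r1 in MD + PE against MD + Veh (-0.064 to 0.32) and CD + PE (-0.17 to 0.15). MD + Veh against CD + PE gave -0.081 to 0.078 for Cyb5a and -0.29 to 0.0071 for Cyb5r1. Depth limits Cyb5r1 most, at 3.59 to 8.72 CPM.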
